A study of Mus musculus with 8 samples.

Results

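The BCL2 family was followed through 10 of its genes, chosen by symbol from the 23143 gene symbols in a count table of a lipopolysaccharide (LPS) time course. These are the pro-survival genes Bcl2, Bcl2l1 (encoding BCL-XL), Mcl1 and the near-identical copies Bcl2a1b and Bcl2a1d (encoding A1), the effectors Bax and Bak1, and the BH3-only genes Bcl2l11 (BIM), Bbc3 (PUMA) and Pmaip1 (NOXA). The table holds RNA sequencing counts from RAW264.7 cells, a mouse macrophage line transformed by a leukemia virus, in 8 libraries. One culture was left unstimulated (0 min), and 7 received 100 ng/ml of LPS, a bacterial surface molecule that is sensed by TLR4, for 120, 90, 75, 60, 45, 30 or 15 min. With 1 library of a single cell line at each time, differences between times lack a replicate check, and the 95% intervals below cover counting error only. The sample labels name total RNA as the molecule and cytoplasmic as the RNA fraction, while the text of the study describes total RNA for this time course, so these sources differ on whether nuclear RNA was included.

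Proteins of the BCL2 family decide at the outer mitochondrial membrane whether a cell enters apoptosis. BAX and BAK1 form pores through which cytochrome c leaves, the pro-survival proteins bind and restrain them, and BH3-only proteins are stress sensors that occupy the pro-survival proteins or act on the effectors. In macrophages, NF-κB induced pro-survival genes are known to protect activated cells from the cytotoxic side of TLR4 signaling. MCL1 and its mRNA turn over quickly, and A1 was discovered as an early response gene of hematopoietic cells.

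The Bcl2a1 copies are shown first, because their likeness decides what could be counted. Reads of 58 bases that matched more than 1 gene symbol had been discarded by the authors, so only the stretches in which copies differ contribute counts. The coding sequences of Bcl2a1a, Bcl2a1b and Bcl2a1d are 519 bases long each in the GENCODE vM21 transcripts (GRCm38); Bcl2a1b and Bcl2a1d differ at 6 positions (98.8% identity), Bcl2a1a and Bcl2a1d at 7 (98.7%), and Bcl2a1a and Bcl2a1b at 11 (97.9%). The beginning of the coding sequence, positions 1 to 90 on the coding strand, holds 6 positions at which the 3 copies are not all alike, written in capitals.
Bcl2a1a: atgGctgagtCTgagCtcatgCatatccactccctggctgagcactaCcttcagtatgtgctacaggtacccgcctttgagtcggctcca
Bcl2a1b: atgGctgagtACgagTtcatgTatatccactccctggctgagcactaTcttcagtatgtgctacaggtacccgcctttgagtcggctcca
Bcl2a1d: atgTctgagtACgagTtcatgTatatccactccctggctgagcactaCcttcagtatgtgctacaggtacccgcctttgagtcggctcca
Bcl2a1b and Bcl2a1d differ from each other at 2 of these 6 positions. Over the annotated transcripts, 358 of 760 58-mers (47.1%) of Bcl2a1b, 199 of 806 (24.7%) of Bcl2a1d and 271 of 762 (35.6%) of Bcl2a1a occur in no other gene, whereas the short transcript of Bcl2a1c keeps 356 of 387 (92.0%). The other 8 members have 58-mers that are all or nearly all their own (100.0% each).

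**Figure D1:**
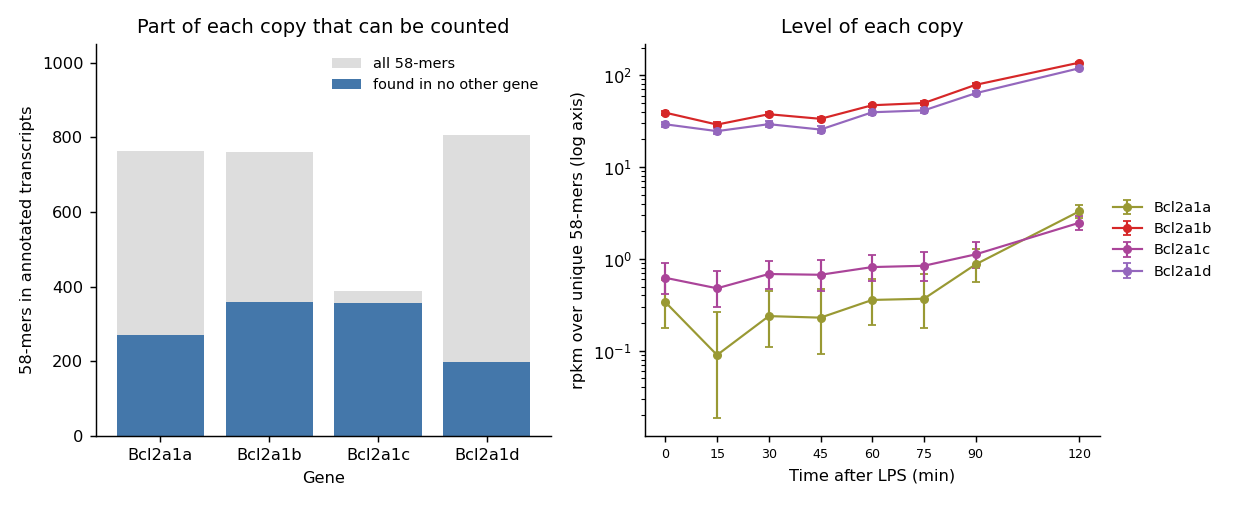
Left, the number of 58-mers in the annotated transcripts of each Bcl2a1 copy (grey) and the number found in no other gene (blue). Right, level of each copy by time in rpkm over its unique 58-mers (log axis, 1 library per time, bars are 95% Poisson intervals for counting error). Bcl2a1b and Bcl2a1d lie between 24.6 and 137 rpkm, while Bcl2a1a and Bcl2a1c stay at or below 3.29 rpkm.

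Total counts ranged from 100250892 (75 min) to 159077286 (120 min), and 12166 genes whose normalized counts averaged 10 or more, all 10 members among them, were used as the background of genes tested. Normalized counts are counts divided by median-of-ratios size factors, which ranged from 0.71 to 1.23. The libraries fall into 2 sets in their content of the ribosomal precursor Rn45s, which took 8.18% to 9.11% of the counts at 0, 30, 60 and 120 min and 13.0% to 20.5% at 15, 45, 75 and 90 min; results are therefore also given for the first of these sets alone. Scaling by total counts instead lowers every log2 ratio to 0 min, by 0.1 at 60 min, 0.2 at 120 min and up to 0.33 at 75 min. All 7 macrophage markers examined (Emr1, Cd68, Csf1r, Lyz2, Itgam, Cd14 and Ptprc) exceeded 1 cpm (count per 1e6 counts of the library) in every library, and their sum was 5662 to 6819 cpm. The 12 markers of T cells, B cells, epithelial cells and fibroblasts stayed below 1 cpm in every library, with sums of at most 0.124 for any of the 4 cell types. A ratio between libraries describes a share of the RNA sequenced, so that loss of cells and less RNA per cell cannot be told apart from it.

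Within both the pro-survival and the BH3-only group, members rose at different times, and no member was called lower than at 0 min at any time. A gene was called when the log2 ratio of normalized counts lay beyond 0.5 and an exact negative binomial test of the 2 libraries, with the dispersion fitted over all 8, passed an unadjusted p-value limit of 0.05; the call compares libraries, not conditions. At 15 min, 0 of 10 members were called higher, against 0.370% of all genes tested. Mcl1, Bcl2l11 and Pmaip1 were higher at 30 min (3 of 10 members, background 1.42%) and at 45 min (3 of 10, background 4.63%); at 30 min the count was 2 with total counts and 0 after Benjamini-Hochberg adjustment. Together with Bbc3 they made 4 of 10 at 60 min (background 4.23%). At 75 min, 4 of 10 were higher, Bcl2a1d now among them and Bbc3 no longer (background 5.86%). At 90 min, 5 of 10 were higher, with Bcl2a1b added (background 7.05%). At 120 min, Bcl2l1, Mcl1, Bcl2a1b, Bcl2a1d and Bcl2l11 made 5 of 10 (background 9.41%), and Pmaip1 had returned to near its level at 0 min. The 0 members called lower stand beside backgrounds of 0.181% (15 min), 0.230% (30 min), 1.85% (45 min), 3.0% (60 min), 4.32% (75 min), 5.54% (90 min) and 8.58% (120 min) of all genes. The balance of all genes at 120 min depends on the scale (5.21% higher with total counts), while the count of members called higher there was 5 with each of the 3 other library scales. With genes of low mean count removed before the fit, or after removal of the trend with transcript length, it was 6, with Bbc3 added.

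By the rule of the study for maxima and minima over all pairs of libraries, 7 of 10 members had at least 1 extremum, compared with 22.9% of all genes tested. Bcl2l1, Mcl1, Bcl2a1b, Bcl2a1d, Bcl2l11 and Bbc3 fell into g1, the genes with a maximum at or after 60 min (9.59% of all genes). Pmaip1 was the single member in g3, genes with an early maximum followed by a minimum (1.07%). No member was in g2, the genes with a late minimum (9.99%), and Bcl2, Bax and Bak1 had no extremum (g0). The median log2 ratio of the 10 members was 0.01 at 15 min, 0.45 at 60 min and 0.92 at 120 min, beside 0.02, 0.00 and -0.01 for all genes tested.

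**Figure D2:**
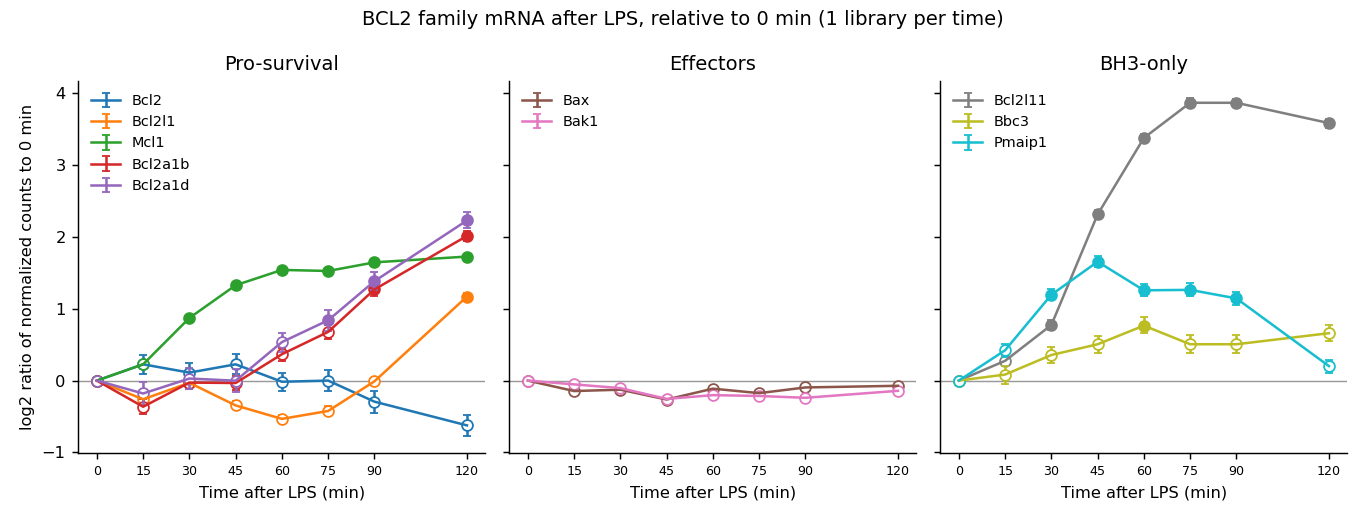
Log2 ratio of normalized counts to the 0 min library against time after LPS (min), for pro-survival members, effectors and BH3-only members (1 library per time). Filled points were called, open points were not, and bars are 95% binomial intervals for counting error. Bcl2l11 climbs to 3.87, Pmaip1 peaks at 45 min, Mcl1 levels off after 60 min, the Bcl2a1 copies climb to the end, and Bax and Bak1 stay between -0.26 and 0.

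Mcl1 (NM_008562, chr3:95656944-95663179 of GRCm38), whose protein is short-lived and binds BAK1 and BIM, was the most abundant mRNA among the pro-survival members and the earliest of them to rise. Its normalized counts were 47597 (0 min), 55768 (15 min), 86916 (30 min), 119652 (45 min), 138613 (60 min), 137093 (75 min), 149003 (90 min) and 157594 (120 min). Every stimulated library was higher than 0 min, and 6 of 7 were called, from 30 min on. The ratio to 0 min reached 1.83-fold (1.81 to 1.84) at 30 min, 2.91-fold (2.88 to 2.94) at 60 min and 3.31-fold (3.28 to 3.34) at 120 min, so that most of the log2 increase was reached by 60 min. The steps between neighbouring times were 1.17, 1.56, 1.38 and 1.16 up to 60 min and 0.989, 1.09 and 1.06 after it, and none of these single steps was called. In the 0, 30, 60 and 120 min libraries alone the log2 ratios were 0.87, 1.54 and 1.73, all called.

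The A1 copies were called later than Mcl1, Bcl2a1d from 75 min and Bcl2a1b from 90 min on. Bcl2a1b (NM_007534, chr9:89199273-89207838) had normalized counts of 1568 (0 min), 1218 (15 min), 1539 (30 min), 1532 (45 min), 2020 (60 min), 2515 (75 min), 3778 (90 min) and 6328 (120 min). Bcl2a1d (NM_007536, chr9:88723288-88731850) had 651, 575, 667, 651, 941, 1163, 1701 and 3053 at the same times. Up to 45 min neither copy exceeded its 0 min value by more than 1.02-fold, and both climbed in every later library. At 120 min the ratio was 4.04-fold (3.83 to 4.25) for Bcl2a1b and 4.69-fold (4.34 to 5.08) for Bcl2a1d. The last step alone, from 90 to 120 min, was called for both (1.67-fold and 1.79-fold). The ratio of Bcl2a1b to Bcl2a1d counts stayed between 2.07 and 2.41 in all 8 libraries. Bcl2a1a, counted through its own stretches, went from 12 counts at 0 min to 142 at 120 min (11.2-fold, 6.22 to 22.2), and Bcl2a1c from 29 to 140 counts (4.57-fold, 3.05 to 7.08), so all 4 copies were higher at 120 min. Because of discarded reads these values describe only the part of each copy that differs. Whether reads of one copy were assigned to another, through sequence differences between this cell line and the reference, was not tested.

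Bcl2l1 (NM_009743, chr2:152758732-152833803), encoding the long-lived pro-survival protein BCL-XL, changed last. Normalized counts were 5893 (0 min), 4921 (15 min), 5771 (30 min), 4639 (45 min), 4073 (60 min), 4398 (75 min), 5850 (90 min) and 13283 (120 min). The values from 15 to 90 min all lay at or below the 0 min value, with the lowest log2 ratio (-0.53, not called) at 60 min, and only the 120 min library stood above it. There, Bcl2l1 was 2.25-fold (2.19 to 2.32) of 0 min and 2.27-fold (2.2 to 2.35) of 90 min, both called. The rise rests on this last library, without which Bcl2l1 has no extremum.

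Bcl2 itself (chr1:106538176-106714290), the founding member of the family, was the scarcest member, with its lowest values at the end. Its normalized counts were 828, 966, 897, 972, 819, 831, 675 and 537 from 0 to 120 min, in order of time. The 90 and 120 min libraries were the lowest, with ratios to 0 min of 0.816 (0.732 to 0.908) and 0.649 (0.587 to 0.717). Neither was called against 0 min. The 120 min library was called lower than those at 15, 30 and 45 min (log2 ratio -0.85, -0.74 and -0.86), but not lower than those at 60, 75 and 90 min. At 120 min the log2 ratio to 0 min was -0.62, and it was -0.82 and called with total counts without Rn45s as the scale. After removal of each library's trend with transcript length it was -0.88 and called; in the 0 min library genes in the longest of 50 length bins had a median of -0.31 (log2, relative to the mean of the 8 libraries) and those in the shortest 0.12.

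Neither effector was called at any time. Bax (NM_007527, chr7:45461695-45466903) had normalized counts from 10217 (45 min) to 12268 (0 min), and Bak1 (NM_007523, chr17:27019812-27028627) from 15350 (45 min) to 18309 (0 min). For both genes the 0 min library was the highest and the 45 min library the lowest of the 8. The log2 ratios to 0 min lay between -0.26 and -0.07 for Bax and between -0.25 and -0.05 for Bak1. At 120 min these were ratios of 0.951 (0.93 to 0.974) for Bax and 0.906 (0.889 to 0.924) for Bak1. After removal of the length trend, Bax was at 0.03 and Bak1 at -0.18 at 120 min (log2), so the direction of Bax depends on the scale.

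Bcl2l11 (chr2:128126038-128162547) encodes BIM, a BH3-only protein that binds all pro-survival members, and it had the largest ratio among the 10 members. Its normalized counts were 2036 (0 min), 2469 (15 min), 3487 (30 min), 10122 (45 min), 21124 (60 min), 29811 (75 min), 29729 (90 min) and 24436 (120 min). The libraries from 45 min on were all several times the level of the early ones, and 75 and 90 min did not differ beyond counting error (ratio 0.997, 0.979 to 1.02). The ratio to 0 min was 1.71-fold (1.63 to 1.8) at 30 min, 4.97-fold (4.75 to 5.2) at 45 min, 14.6-fold (14.0 to 15.3) at 75 min and 12.0-fold (11.5 to 12.5) at 120 min. In the list of all 12166 genes by ratio, Bcl2l11 held place 290 (30 min), 106 (45 min), 57 (75 min) and 110 (120 min). The steepest steps were from 30 to 45 min (2.9-fold) and from 45 to 60 min (2.09-fold), both called, while the decline from 90 to 120 min (0.822) was not. In the 0, 30, 60 and 120 min libraries alone, the log2 ratios were 0.78, 3.38 and 3.59, of which the one at 30 min was no longer called.

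Pmaip1 (NM_021451, on chromosome 18), encoding NOXA, a BH3-only protein that binds MCL1 and A1 selectively, rose early and came back. Normalized counts were 1513 (0 min), 2033 (15 min), 3465 (30 min), 4770 (45 min), 3610 (60 min), 3637 (75 min), 3338 (90 min) and 1733 (120 min). The 5 libraries from 30 to 90 min were called higher than 0 min, with the highest value at 45 min (3.15-fold, 2.98 to 3.34). From 90 to 120 min the level fell to 0.519 of its value (0.49 to 0.55), a called step that left it at 1.15-fold (1.08 to 1.22) of 0 min. The placing in g3 rests on the 45 and the 120 min libraries. Without the 45 min library, or in the 0, 30, 60 and 120 min libraries alone, the maximum lay at or after 60 min (g1), and without the 120 min library the minimum was missing. The return itself was present in the 0, 30, 60 and 120 min libraries, with log2 ratios of 1.2, 1.26 and 0.2.

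Bbc3 (NM_133234, chr7:16308398-16318334), encoding PUMA, a p53 target, showed the smallest movement of the BH3-only members. Its normalized counts were 925, 978, 1179, 1312, 1575, 1314, 1314 and 1462 from 0 to 120 min, in order of time. All 7 stimulated libraries were above 0 min, with the highest at 60 min (1.7-fold, 1.58 to 1.84), the only time called. At 120 min the ratio was 1.58-fold (1.47 to 1.71) with a log2 ratio of 0.66, not called; it was called with genes of low mean count removed before the fit (0.67) and after removal of the length trend (0.74). The call at 60 min was lost with total counts, with or without Rn45s, with the dispersion of edgeR, with Benjamini-Hochberg adjustment, with a log2 limit of 1 and in the 0, 30, 60 and 120 min libraries alone, where the log2 ratio was 0.67 to 0.77.

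Levels can be compared between genes only per length, for which rpkm (counts per kilobase of unique 58-mers and per 1e6 counts of the library) was used. At 0 min, Bax (135 rpkm) and Mcl1 (126 rpkm) led the family, followed by Bak1 (70.1), Bcl2a1b (39.1), Bcl2a1d (29.2) and Bcl2l1 (22.3). Far below these stood the BH3-only members Pmaip1 (5.05 rpkm), Bbc3 (4.7 rpkm) and Bcl2l11 (3.53 rpkm), and last Bcl2 with 0.812 rpkm (0.762 to 0.865). Pmaip1 (4.82 to 5.29) and Bbc3 (4.42 to 4.98) overlapped in their counting intervals, and no other neighbours in this order did. At 120 min the order was Mcl1 (364 rpkm), Bcl2a1b (137), Bcl2a1d (119), Bax (112), Bak1 (55.2), Bcl2l1 (43.7), Bcl2l11 (36.9), Bbc3 (6.45), Pmaip1 (5.03) and Bcl2 (0.458), with no overlap between the intervals of neighbours. Bcl2l11 thus moved from the ninth to the seventh place, and on this length both A1 copies passed Bax and Bak1. The place of the A1 copies depends on the length used. Divided by the longest annotated transcript, which does not allow for discarded reads, Bcl2a1b had 60.1 rpkm at 120 min, above Bak1 (53.9) and below Bax (82.3), and Bcl2a1d had 27.4 rpkm, below both effectors and below Bcl2l11 (37.6). On that length Mcl1 (124 rpkm) stood above Bax (99.5 rpkm) at 0 min already.

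The sum over the 10 members went from 436 rpkm at 0 min to 673 rpkm at 60 min and 879 rpkm at 120 min. Pro-survival members made up 49.9% of it at 0 min, 66.3% at 60 min and 75.5% at 120 min, and the effectors 47.0%, 25.8% and 19.0%. The BH3-only share was 3.05% (0 min), 7.89% (60 min), 9.45% (75 min) and 5.5% (120 min). As a ratio within each library, which needs no scale between libraries, summed pro-survival over summed BH3-only rpkm was 16.4 (0 min), 13.9 (15 min), 13.6 (30 min), 10.0 (45 min), 8.4 (60 min), 7.03 (75 min), 8.48 (90 min) and 13.7 (120 min). It was lowest at 75 min and higher again at 120 min. Between these libraries Bcl2a1b, Bcl2a1d, Mcl1 and Bcl2l1 rose (49.8 to 137, 41.4 to 119, 289 to 364 and 13.2 to 43.7 rpkm). Bcl2l11 and Pmaip1 fell (41.1 to 36.9 and 9.65 to 5.03 rpkm), as did Bcl2 (0.647 to 0.458), while Bbc3 rose (5.3 to 6.45). The ratio of the sums took the same course with lengths of the longest transcripts (12.9, 5.81 and 9.95 for 0, 75 and 120 min) and without the A1 copies (11.2, 5.4 and 8.43). The BH3-only sum holds only Bcl2l11, Bbc3 and Pmaip1, not the BH3-only genes Bid, Bad and Bmf outside the 10 members. Normalized counts at 0, 75 and 120 min were 10035, 5776 and 7337 for Bid. They were 3113, 2423 and 2060 for Bad and 1562, 225 and 177 for Bmf. At 0 min Bid exceeded each of the summed BH3-only members in these counts. The course above is thus that of the summed members only. With Bid, Bad and Bmf added per length, the ratio at 75 min was above that at 0 min, and that at 120 min was higher still. The fall from 0 to 75 min was thus not kept. Mcl1 over Bcl2l11 went from 35.7 at 0 min and 38.1 at 30 min to 10.0 (60 min), 7.03 (75 min) and 9.86 (120 min). These are ratios of mRNA, and protein was not measured in these libraries.

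**Figure D3:**
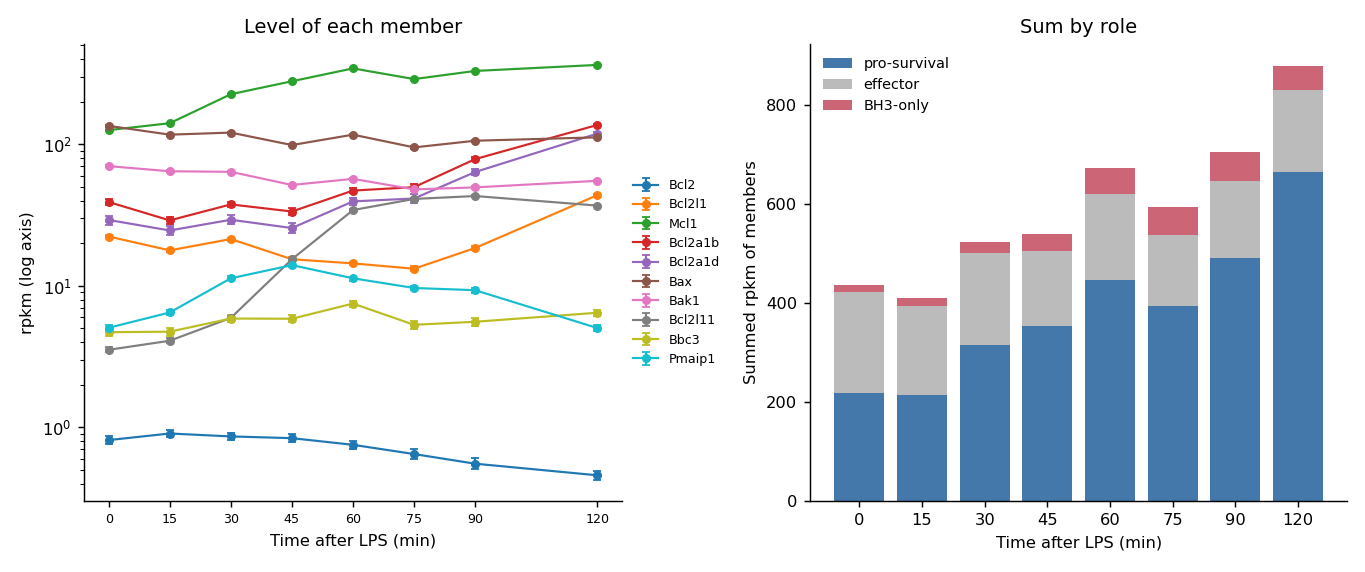
Left, level of each of the 10 members in rpkm (log axis) by time after LPS, 1 library per time, bars are 95% Poisson intervals for counting error. Right, summed rpkm of the members by role in each library. The pro-survival part grows from 218 rpkm at 0 min to 664 rpkm at 120 min. The effector part is between 143 and 205 rpkm, and the BH3-only part is largest at 90 min (58 rpkm). The rpkm scale includes Rn45s, which took 20.5% of counts at 75 min and 15.8% at 90 min. In normalized counts Bcl2l11 and Pmaip1 were higher at 75 min (29811 and 3637) than at 90 min (29729 and 3338), and Bbc3 was equal (1314).

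Beyond the 10 members, 40 other genes of the family and of mitochondrial apoptosis were listed, of which 34 reached the mean count of the genes tested. At 60 min 2 of 34 were called higher (5 of 34 at 120 min) and 1 of 34 lower (3 of 34 at 120 min), beside 4.23% (9.41%) and 3.0% (8.58%) of all genes, and the median log2 ratio was 0.00 at 60 min and -0.04 at 120 min. The largest decrease was that of Bmf, a BH3-only protein that is held at the cytoskeleton. Its normalized counts were 1562 (0 min), 1857 (15 min), 1349 (30 min), 952 (45 min), 432 (60 min), 225 (75 min), 212 (90 min) and 177 (120 min). All 5 libraries from 45 min on were called lower, and at 120 min Bmf was 8.8-fold lower (7.65 to 10.2) than at 0 min. Among all 12166 genes it held place 11 from the bottom at 75 min and 21 at 120 min. Within the 0, 30, 60 and 120 min libraries its log2 ratios were -0.21, -1.85 and -3.13. Bid, which links death receptors to BAX and BAK1, was below 0 min in every stimulated library. It was called lower at 75 and 90 min only (log2 ratio -0.8 and -0.77). Bad was not called at any time (log2 ratio -0.6 at 120 min). BH3-only genes thus moved in opposite directions, Bcl2l11 up and Bmf down, over the same libraries.

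Of 11 genes of the execution step (among them the apoptosome, factors released from mitochondria and the VDAC channels), 0 were called at 60 min and 1, lower, at 120 min, a share near the background of all genes given above (8.58% lower at 120 min). This was Casp9, the initiator caspase of the apoptosome, 2.16-fold lower (2.05 to 2.28) at 120 min. The counting is not stated to use strand, and 38 of the 58-mers of Casp9, 21 of those of Ddit3 and 462 of those of Bad also occur on the opposite strand of Cela2a, Mars and Gpr137, so reads of these stretches cannot be told apart. The same holds for 373 of the 58-mers of Htra2 (with Loxl3), 325 of Endog (with D2Wsu81e) and 121 of Diablo (with B3gnt4), execution genes that were not called at 60 or 120 min, and for 69 of Bcl2l12 (with Gm15545). Apaf1 and Cycs were not called at either time. Among 5 tested genes that control turnover of MCL1 or BIM, Huwe1, a ubiquitin ligase for MCL1, was higher at 120 min (1.95-fold, 1.93 to 1.98) and also called at 45, 75 and 90 min; at 120 min its log2 ratio of 0.97 became 0.76 with total counts and 0.53 after removal of the length trend, neither called. In the set upstream of BH3-only genes, Mdm2, the p53 ligase, reached a log2 ratio of 2.31 at 60 min and was at 1.77 at 120 min. Ddit3 (CHOP), which can activate Bcl2l11, was in g3 like Pmaip1, with a log2 ratio of 1.46 at 45 min and 0.01 at 120 min. Foxo3, another activator of Bcl2l11, was not called from 15 to 90 min and was 1.84-fold lower (1.72 to 1.96) at 120 min. Trp53 was not called at 60 or 120 min. Bcl2l15, at 14 counts at 0 min and 44 at 120 min, was also called higher at 120 min (2.98-fold, 1.6 to 5.88), a value that rests on few reads.

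**Figure D4:**
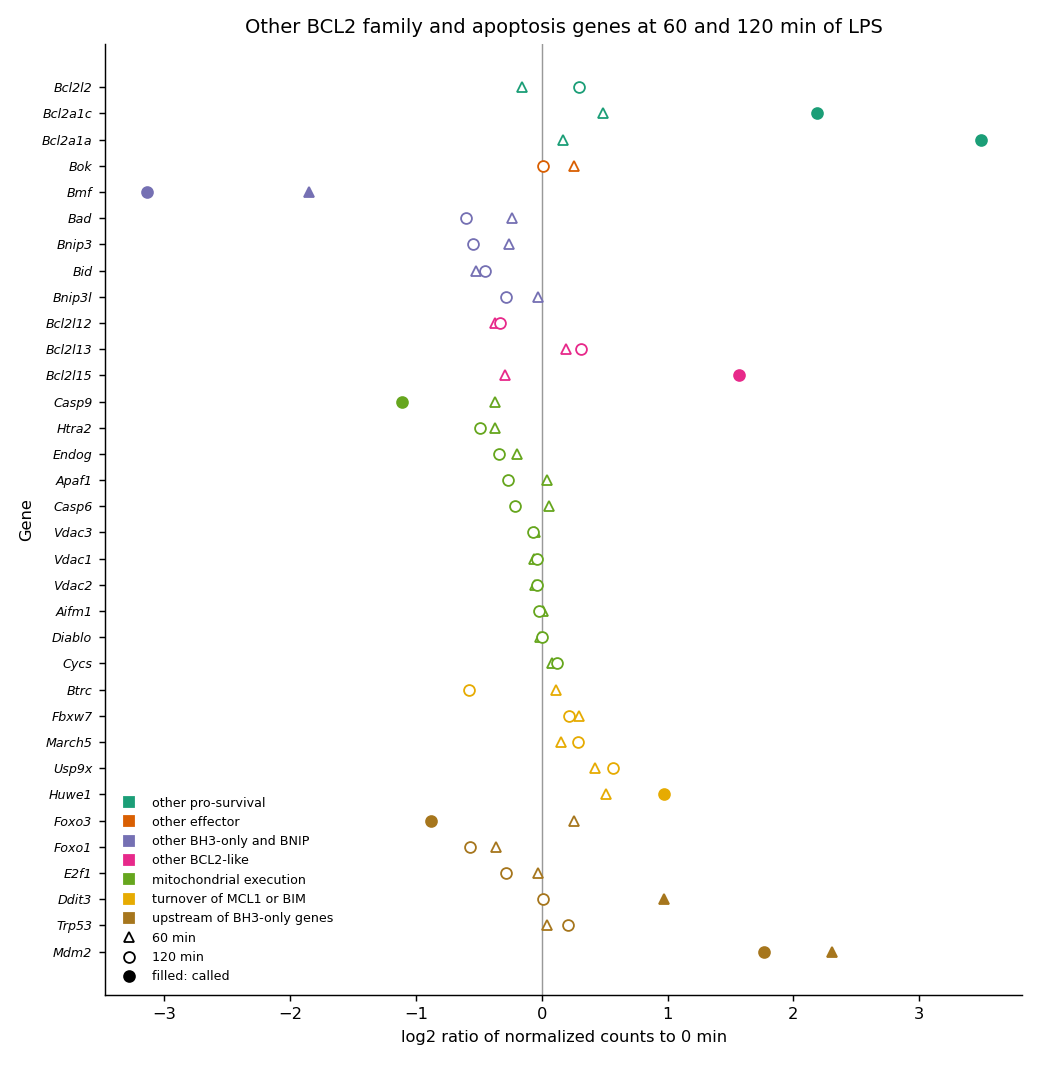
Log2 ratio of normalized counts to 0 min at 60 min (triangles) and 120 min (circles) for the 34 tested genes of the list, colored by list; filled symbols were called. Bmf lies far to the left at both times (-1.85 and -3.14), Bcl2a1a, Bcl2a1c and Mdm2 lie to the right at 120 min, and most execution genes lie near 0.

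Promoter windows (250 bases before to 50 after the start, RefSeq, GRCm38.p6) were found for 9 of 10 members. For Mcl1, Bcl2l1 and Bbc3 all windows lie inside the gene coordinates given above. They do not reach the outer start of these genes, which was thus not searched. The windows of Bcl2a1b and Bcl2a1d are shown because these copies moved together; the capitals mark the AP-1 motif TGANTCA, which was searched on both strands and is held by 7.81% of all 32851 windows and 5.18% of the 11364 windows of genes tested. That of Bcl2a1b is chr9:89199023-89199322 (plus strand) and that of Bcl2a1d chr9:88731801-88732100 (minus strand).
Bcl2a1b: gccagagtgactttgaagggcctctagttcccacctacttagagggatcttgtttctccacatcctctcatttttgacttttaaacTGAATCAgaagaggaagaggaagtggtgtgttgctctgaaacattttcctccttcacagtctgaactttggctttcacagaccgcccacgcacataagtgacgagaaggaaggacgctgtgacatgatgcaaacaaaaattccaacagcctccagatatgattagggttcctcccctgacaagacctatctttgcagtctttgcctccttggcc
Bcl2a1d: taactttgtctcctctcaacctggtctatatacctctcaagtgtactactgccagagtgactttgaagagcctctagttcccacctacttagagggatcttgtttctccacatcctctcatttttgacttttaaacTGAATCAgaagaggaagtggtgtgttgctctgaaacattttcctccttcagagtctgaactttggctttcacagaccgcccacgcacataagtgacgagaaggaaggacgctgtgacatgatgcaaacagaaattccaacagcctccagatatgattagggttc
The motif begins at -164 in Bcl2a1b and at -114 in Bcl2a1d, counted from the annotated start, and also stands in the window of Bcl2a1a (-120) but not in that of Bcl2a1c. The NF-κB motif, held by 8.46% of all windows and 10.4% of those of genes tested, occurs in 1 of 3 windows of Bcl2l1 and in 1 of 3 of Bbc3, where 2 matches overlap. Outside the members it also occurs in 1 of 3 windows of Bmf, the listed gene with the largest decrease. A link between the motif and the course of a gene was not tested. The Bcl2l1 window with the motif, on the minus strand at chr2:152830668-152830967, is printed with the motif in capitals, since Bcl2l1 was the member that rose last.
Bcl2l1: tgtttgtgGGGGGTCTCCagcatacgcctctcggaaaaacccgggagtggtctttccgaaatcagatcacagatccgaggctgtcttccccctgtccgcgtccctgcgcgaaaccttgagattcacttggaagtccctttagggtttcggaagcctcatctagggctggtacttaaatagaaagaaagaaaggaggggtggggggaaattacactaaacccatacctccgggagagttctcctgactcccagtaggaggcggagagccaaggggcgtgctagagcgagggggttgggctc
Neither motif, nor the cAMP responsive element TGACGTCA (1.79% of all windows and 3.18% of those of genes tested), was found in the windows of Mcl1, Bcl2l11, Bcl2, Bax and Bak1, which says only that these letters are not in these windows.

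The pentamer AUUUA, part of the AU-rich elements that mark short-lived mRNAs, was counted in the annotated 3′ untranslated regions. Mcl1 has 8 in 2353 bases (3.4 per kilobase), Bcl2l11 6 in 4218 (1.42 per kilobase), Pmaip1 4 in 2187 (1.83 per kilobase) and Bcl2 15 in 5086 (2.95 per kilobase). Bcl2l1, Bcl2a1b and Bcl2a1d have 1 each, in 1477, 147 and 149 bases (0.677, 6.8 and 6.71 per kilobase), and Bax, Bak1 and Bbc3 have 0. Over 11293 genes the median was 1 pentamer (1.25 per kilobase), and 67.4% had at least 1. The number of pentamers and their density thus order the members differently, since the untranslated regions differ widely in length.

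For each member with an extremum, the genes with the most similar course were sought among 3854 genes by Pearson's r of log2(normalized count + 1) over the 8 libraries, given as a description. Mcl1 was most like Cdkn1a (r = 0.9968), Kdm6b and Nlrp3. Both A1 copies were most like the chemokine gene Ccl9 (r = 0.999 for Bcl2a1b and 0.998 for Bcl2a1d), followed by Tes and Anxa7. Bcl2l11 came closest to Zbtb21 (r = 0.9989), Spty2d1 and Alg13, and Bcl2l1 to Traf3ip2 (r = 0.9848), Tlr1 and Arhgap22. Bbc3 was nearest to H2-K2 (r = 0.9945), Mafk and Id3. Pmaip1 had the fewest similar genes among these 7 members, with Ehbp1 (r = 0.9792), Chac1 and Atad5 as the only 3 genes above r = 0.95, compared with 10 genes for Bcl2l1, 19 for Bbc3, 168 for Mcl1, 213 for Bcl2a1b, 250 for Bcl2a1d and 300 for Bcl2l11. Smooth courses of 8 points reach high r easily, and 13 of these 21 places were kept when the 45 min library was left out.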

How the data were processed

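RNA of 8 RAW264.7 cultures was sequenced by the authors (Ribo-Zero, NEBNext Ultra Directional kit), and per the methods 58-base reads were aligned by Bowtie to RefSeq transcripts (mm10) with at most 2 mismatches, discarding reads of more than 1 gene symbol. The deposited values are raw counts per gene symbol, not normalized by the authors; per the labels CASAVA 1.8.2 and DESeq 1.10.1 were used. The strand was not stated to restrict counting. All 8 columns were used, and every row names a gene.

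From the counts, median-of-ratios size factors, a blind parametric dispersion (0.0287 + 0.853/mean) and exact negative binomial tests of all 28 pairs of libraries were computed after the DESeq settings of the study, with own code (Python 3.11.15 with scipy 1.17.1, numba 0.67.0, pandas 2.3.3 and numpy 2.4.6), tested on simulated data. A quasi-likelihood test with each time as its own group has no residual degrees of freedom with 1 library per time point, and a fit of a trend over time was not run. Ratios carry exact conditional binomial and rpkm values exact Poisson 95% intervals. Lengths are 58-mers of GENCODE vM21 transcripts unique on the same strand; coordinates come from RefSeq (GRCm38). Alternatives used edgeR 4.0.16 and DESeq2 1.42.0 in R 4.3.3. The genes named are all 10 members, the listed genes called at 60 or 120 min or with the largest ratios at 120 min, the 3 genes most like each member with an extremum (mean normalized count of at least 100, largest absolute log2 ratio of at least 0.5), and Rn45s. Bid, Bad, Trp53 and the execution genes named without a call were chosen after their values were seen. Members and lists were chosen with earlier results of these data known. Some listed genes are not reported here, and protein sequences were not used.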

Additional observations from a re-analysis of the deposited data

How the results depend on the processing

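With 1 library per time point, all calls depend on the fitted dispersion and the chosen scale. No log2 ratio of a member, Bmf or Huwe1 at 60 or 120 min changed the sign of a call under any alternative run. The count of members called higher at 30 min (3) became 0 with Benjamini-Hochberg adjustment and 1 with a log2 limit of 1. Members called lower at 120 min (0) became 1, Bcl2, with total counts without Rn45s and with counts divided by the trend with transcript length, an alternative chosen after seeing the data. Among the other listed genes, those higher at 60 min (2) became 1 with Benjamini-Hochberg adjustment or a log2 limit of 1, those higher at 120 min (5) became 3 with total counts or with Benjamini-Hochberg adjustment, and those lower at 120 min (3) became 5 with total counts without Rn45s; the cause was not tested. Leaving out each library but 0 min in turn gave 6 to 7 members with an extremum, 4 to 5 members higher at 75 min and 4 to 5 listed genes higher at 120 min, and moved no other count. Over 17 settings (scales, dispersions, limits, filter, libraries left out and length trend) Mcl1, Bcl2a1b, Bcl2a1d, Bcl2l11, Bax and Bak1 kept their pattern in all 17, Bcl2l1 in 16, Bcl2 in 15, Pmaip1 in 14 and Bbc3 in 10. In the 15, 45, 75 and 90 min libraries alone, also chosen after seeing the data and with 15 min as the start, Mcl1, Bcl2a1b, Bcl2a1d, Bcl2l11 and Pmaip1 had an extremum. Of all genes tested, the share called higher at 120 min (9.41%) was 4.84% after Benjamini-Hochberg adjustment. No paired analysis was possible because each time point has 1 library. A count of 0 allows up to 0.0299 cpm at 75 min.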

Other observations

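Of the 40 listed genes, 6 did not reach a mean normalized count of 10 and entered no comparison. These were the BH3-only genes Bik (mean normalized count 1.23, 0 counts at 0 min and 10 at 120 min) and Hrk (2.05, at most 7 counts in any library), the BCL2-like genes Bcl2l10 (0.337) and Bcl2l14 (2.96), the ubiquitin ligase gene Trim17 (3.1) and the p53 relative Trp73 (0.677).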
